A study of Mus musculus with 8 samples.

Results

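Peaks of the histone mark H3K27ac, acetylation that accompanies active promoters and enhancers, were described at 6 genes in mouse adrenal glands from the end of gestation to adulthood: Igf2bp1, Igf2bp2, Igf2bp3, Lin28a, Lin28b and Hmga2. These are 6 of 21938 protein-coding genes in the annotation, and their windows (each gene with 50 kb on either side) held 105 of the 150510 regions obtained by merging the peaks of all lists where they overlap. The genes were chosen by name from earlier results of these same peak lists, in which Igf2bp1 and Igf2bp3 were selected on their loss of peaks with age. Every count and value of the promoter and body peaks below is therefore a description, and no test was made on it.

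The glands came from C57BL/6J mice, an inbred strain, with no genotype or treatment named for any group, and each library was made from a pool of whole glands. The E18.5 library, from embryos late in gestation and of undetermined sex, pooled 30 glands. Libraries of postnatal day 1 (P1) pooled 22 glands per sex, the 2-week libraries 12 per sex and the 12-week libraries 6 per sex. No group had a replicate, since each age and sex is 1 library. Whole glands hold cortex, medulla, vessels and blood, so fewer cells of a type and less of the mark per cell cannot be told apart.

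The values are the authors' own: each peak has a position and, from their peak caller, a fold enrichment and a −log10 q (q is the p-value adjusted for multiple tests). These depend on each library's depth, which is unknown, so a peak was ranked only within its own list, as the percentage of that list's peaks with a −log10 q at or below its own (its percentile). A gene without a promoter peak in a list is given as not called, which does not show that the mark was absent. The 7 lists held 44244 to 108079 peaks. The E18.5 list was the longest and stood apart, with a −log10 q under 2 in 71.8% of its peaks, against 29.5% to 52.2% in the others. A −log10 q of 5 sat at percentile 90.5 in that list and at 71.7 to 81.8 in the others. Percentiles at E18.5 and later are thus not on the same scale, and a lower one after birth can come from the lists. Of 8 adrenal cortex markers, all 8 had a called promoter in 6 lists and 7 in P1 females, where 58.6% to 69.9% of all protein-coding promoters were called per list. The median percentile of the called markers was 89.6 before birth, 72.8 (female) and 76.5 (male) at P1, 85.9 and 88.6 after 2 weeks, and 91.9 and 94.3 after 12 weeks. For the 11933 promoters called in all 7 lists, the median was 94.9 at E18.5 and 87.3 to 91.6 afterwards.

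The 6 genes belong to a regulatory axis of developing tissues. LIN28A and LIN28B are RNA-binding proteins that block the maturation of let-7, a family of microRNAs that accumulates as tissues mature. Mature let-7 pairs through its seed with the 3′ untranslated regions (UTRs) of mRNAs and lowers their output, and HMGA2, a chromatin protein, the IGF2BP proteins, which bind and stabilise mRNAs such as that of Igf2, and the LIN28 proteins themselves are known targets.

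The let-7 seed and the sites it can pair with are shown because they are the sequence feature that ties the 6 genes together. RefSeq (GRCm38.p6) gave 11 mature let-7 entries under 9 names, with 1 seed in common. Seeds (bases 2 to 8) are in capitals in let-7a and in let-7d, which differs from it outside the seed.
mmu-let-7a-5p: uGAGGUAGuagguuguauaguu
mmu-let-7d-5p: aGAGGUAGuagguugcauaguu

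A site is the letters CTACCTC, the reverse complement of the seed, in an annotated 3′ UTR on the strand of the mRNA. All 6 genes held at least 1 site, against 8.96% of 20964 protein-coding genes and 15.1% of the 10167 genes whose 3′ UTR is at least 1 kb long. Igf2bp1, Lin28b and Hmga2 had 4 sites each, a number of 3 or more being found in 0.153% of genes. Lin28a had 2, and Igf2bp2 and Igf2bp3 had 1 each. The UTRs were also long, from 1.78 kb in Igf2bp2 to 6.34 kb in Igf2bp1, and density ranged from 0.472 sites per kb in Igf2bp3 to 1.33 in Hmga2, against 0.0698 over all genes. A match in letters is a description and does not show binding. The first site of each gene, in 22-base windows on GRCm38 with the match in capitals, read as follows.
Igf2bp1 (chr11:95961776-95961797, minus strand): gtgcgaagtaaaCTACCTCaag
Igf2bp2 (chr16:22059471-22059492, minus strand): cacaaataaaagCTACCTCagg
Igf2bp3 (chr6:49086785-49086806, minus strand): atttttactcaaCTACCTCagg
Lin28a (chr4:134005187-134005208, minus strand): cagcctgttgaaCTACCTCatt
Lin28b (chr10:45381020-45381041, minus strand): cgggcgggaagtCTACCTCatg
Hmga2 (chr10:120364222-120364243, minus strand): gacattcaatttCTACCTCagc

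Of all 16 sites, 9 are followed by an a, as in these first ones, and 7 are not, 3 of them in Lin28b, 3 in Hmga2 and 1 in Igf2bp1. In Lin28b the first site begins at base 36 of the UTR and in Hmga2 at base 58, near the stop codon, whereas in Igf2bp1 it begins at base 1715.

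At the starts of the GENCODE basic set, the promoter peaks divided the 6 genes into 3 kinds. Igf2bp1 and Igf2bp3 had a promoter peak at E18.5 and at P1 and none at 12 weeks. Igf2bp2 and Hmga2 kept one in every list, and Lin28a and Lin28b had none in any list. A promoter was called when a peak lay within 1 kb of a transcription start. By these calls the name of fetal genes describes the promoter peaks of Igf2bp1 and Igf2bp3, and not those of Igf2bp2 and Hmga2.

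At E18.5, 4 of the 6 promoters were called, where 69.9% of all 21938 promoters were. These starts are those of the basic set; with the starts of all annotated transcripts, 6 of the 6 were called at E18.5 (71.6% of all promoters), the added ones being Lin28a and Lin28b. With the basic starts the same 4 were found in the P1 lists of both sexes (57.1% of all promoters), but only 2 at 2 weeks in both sexes (58.7%) and 2 at 12 weeks in both sexes (59.5%). Loss between P1 and 12 weeks, meaning a peak at E18.5 and in P1 lists of both sexes and in neither 12-week list, was found for 2 of the 6 and for 0.456% of all promoters (100 genes). Since the genes were chosen on this pattern, nothing is read from that difference. With the starts of all annotated transcripts, Igf2bp1 alone was lost (1 of the 6, and 0.447% of all promoters), because an intron peak of Igf2bp3 in 12-week females lay within 1 kb of the start of a shorter transcript. With peaks of a −log10 q of at least 5 alone, 4 promoters were called at E18.5 (46.6% of all promoters) and 3, without Hmga2, in the P1 lists of both sexes (39%). Igf2bp2 was then the 1 promoter called at 2 weeks in both sexes (43.7%), and at 12 weeks 0 were (45%). That 0 comes from the 12-week male list, where Igf2bp2 had a −log10 q of 3.18 and Hmga2 of 2.34, while in females they had 5.12 and 7.62. The 12-week count was also 0 when only the top-ranked peaks of each list, covering 56.0 Mb, were used (48.8% of all promoters). Under that setting Igf2bp2 was called in neither 12-week list and so counted as lost with Igf2bp1 and Igf2bp3 (3 of the 6, and 5.23% of all promoters), while Hmga2 was still called in 12-week females.

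**Figure D1:**
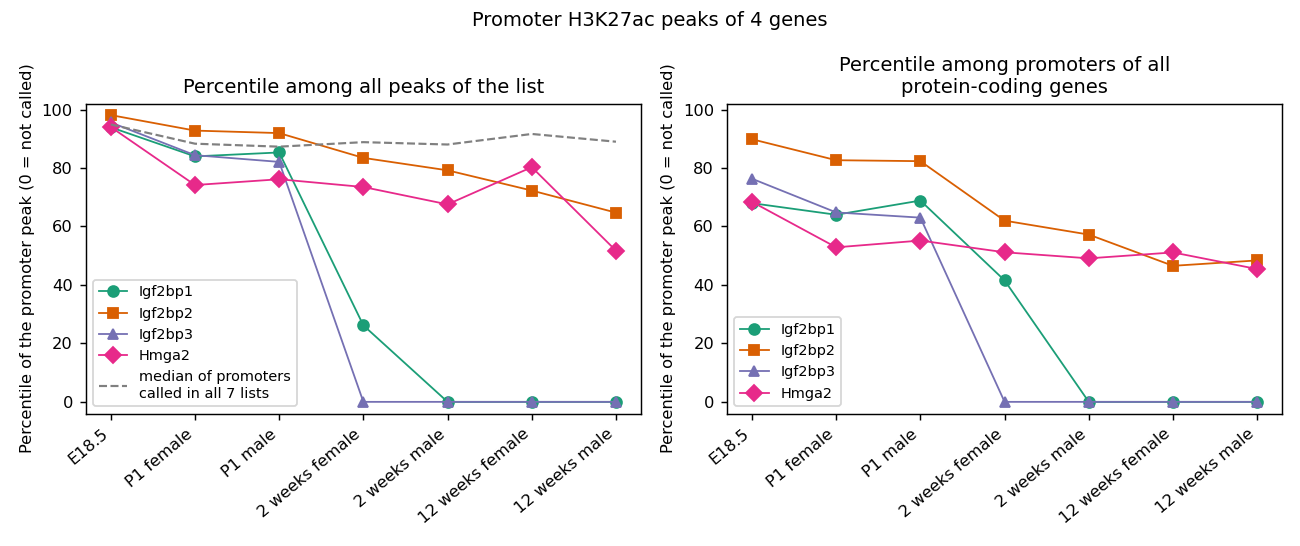
Percentile of the promoter peak of Igf2bp1, Igf2bp2, Igf2bp3 and Hmga2 in each of the 7 lists (1 point per list, 0 where no peak was called), among all peaks of the list on the left and among promoters of all protein-coding genes on the right; the dashed line is the median of the 11933 promoters called in all 7 lists. The Igf2bp3 line reaches 0 in 2-week females and the Igf2bp1 line in 2-week males, while on the left the Igf2bp2 line descends to 64.7 in 12-week males. On the right, uncalled promoters rank below every called one.

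Igf2bp3, also known as IMP3, encodes an mRNA-binding protein best known from embryos and tumours. The gene lies on the minus strand at chr6:49085223-49214957 (GRCm38, 130 kb, ENSMUSG00000029814.10), and its promoter region, chr6:49213100-49216323, covers the first exon, with coding and UTR sequence. The promoter peak stood at percentile 95.6 at E18.5, 84.4 in newborn (P1) females and 82.1 in newborn males, with fold enrichments of 6.59, 4.41 and 4.93 from the authors' caller. At the basic starts no promoter peak was called in either 2-week list or in either 12-week list. Igf2bp3 was thus the only gene of the 6 whose promoter was called in the E18.5 and both P1 lists and was gone from both 2-week lists. Of 21938 protein-coding genes, 54 had that pattern. The difference from Igf2bp1 rests on a peak in 2-week females with a −log10 q of 1.83, and with a minimum of 2 Igf2bp1 had the pattern too. At P1 the peak was 2882 bp wide in females and 3193 bp in males, at a −log10 q of 5.95 and 7.41.

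A second region upstream of Igf2bp3 followed the same timing. It lay between genes at chr6:49217279-49218466, with its near edge 2322 bp from the start, outside the promoter window. Its peaks ranked at 93.2 at E18.5, and at P1 at 86.8 in females and 92.2 in males, and it was not called in the 4 later lists. In both P1 lists this upstream region ranked above the promoter itself.

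The promoter and the upstream region are printed because these are the sequences that lost their peaks. The promoter is RefSeq's, 250 bases before to 50 after the start, with matches to CACGTG and ATTGG (or its reverse complement CCAAT) in capitals. The upstream sequence is the middle of the stretch shared by the 3 peaks, on the plus strand, with a match to GGGCGG in capitals.
Igf2bp3 promoter (chr6:49214905-49215204, minus strand): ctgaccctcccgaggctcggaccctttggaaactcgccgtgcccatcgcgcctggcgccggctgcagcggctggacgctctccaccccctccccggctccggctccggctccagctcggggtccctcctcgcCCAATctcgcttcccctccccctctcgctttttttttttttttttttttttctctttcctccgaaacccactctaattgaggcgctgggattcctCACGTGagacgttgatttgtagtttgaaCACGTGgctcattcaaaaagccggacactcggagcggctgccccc
Igf2bp3 upstream region (chr6:49217552-49217851, plus strand): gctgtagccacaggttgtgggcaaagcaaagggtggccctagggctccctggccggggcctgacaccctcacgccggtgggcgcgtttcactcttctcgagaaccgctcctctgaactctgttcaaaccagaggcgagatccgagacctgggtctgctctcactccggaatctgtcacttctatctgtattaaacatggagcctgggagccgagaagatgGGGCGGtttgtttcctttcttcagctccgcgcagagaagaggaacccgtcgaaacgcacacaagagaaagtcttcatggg

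The motifs searched, on both strands, were GGGCGG, known from GC boxes; ATTGG, known from CCAAT boxes; TATAAA, the core of the TATA box; CACGTG, known from E-boxes; and AAGGTCA, bound by nuclear receptors such as that encoded by Nr5a1. The Igf2bp3 promoter held CACGTG at 2 places, as did 0.811% of 16522 promoters in the table, while 8.11% held it at least once. It also held 1 ATTGG, found in 38.7% of promoters. The GC content of the Igf2bp3 promoter was 60.3% with 25 CpG, against medians of 57% and 14. The Lin28b promoter, called in no list, held 1 CACGTG and 1 ATTGG too. The upstream sequence held 17 CpG at 57.3% GC, and 1 GGGCGG. The TATA letters, in 12.9% of all promoters, and those of nuclear receptors, in 3.95%, were in none of the 5 matched promoters, which says only that these letters were not in those windows.

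Igf2bp1, also called IMP1 or ZBP1, encodes the founding member of the family. The gene lies on the minus strand at chr11:95957163-96005940 (GRCm38, 48.8 kb, ENSMUSG00000013415.9), and the promoter region spans chr11:96004169-96007881. An antisense noncoding gene, Gm29202, starts inside this region, and a histone peak cannot be assigned to either strand. The promoter peak ranked at 93.9 at E18.5, at 84.0 and 85.3 in the P1 female and male libraries and at 26.2 in 2-week females, and was not called in 2-week males or at 12 weeks. Its fold enrichment was 5.75, 4.38, 5.53 and 2.93 in these 4 lists. The remaining peak of 2-week females was narrow and weak, 967 bp wide at a −log10 q of 1.83, against 2287 to 3534 bp earlier. The 2-week libraries therefore differed between the sexes in the call, with a low-ranked peak in females and none in males. Whether this is a difference of sex was not tested.

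Its body held 9 peaks at E18.5, 2 in each P1 list, 1 in 2-week females and 0 in the other 3 lists. The body held 9 merged regions in the 7 lists together, each with an E18.5 peak. Of these 9 regions, 7 were called in the E18.5 list alone, at percentiles of 8.78 to 73.2. Of all regions, with or without an E18.5 peak, 43.5% were called in that list alone. Peaks in the body that reached a −log10 q of 2 numbered 2 before birth, 1 in each P1 list and 0 later, so the higher number at E18.5 came mostly from weak peaks. An intron region at chr11:95981905-95983460, 23.3 kb into the gene, ranked at 68.1 before birth, at 72.9 (female) and 45.3 (male) at P1 and at 12.8 in 2-week females, and was not called later. It lies within 1 kb of the start of a shorter annotated transcript. An intron region at chr11:95990683-95992947 ranked at 91.8 before birth and at 13.6 (female) and 63.1 (male) at P1, and was called in none of the 4 later lists. In base pairs, peaks covered 7.45 kb of the gene at E18.5, 4.23 kb and 3.25 kb in the female and male P1 lists, 1.64 kb in 2-week females and 0 kb in the other 3 lists. Around the gene the libraries did call peaks at these ages: the promoter of Snf8, 29.2 kb upstream, ranked between 83.7 and 91.0 in all 7 lists.

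**Figure D2:**
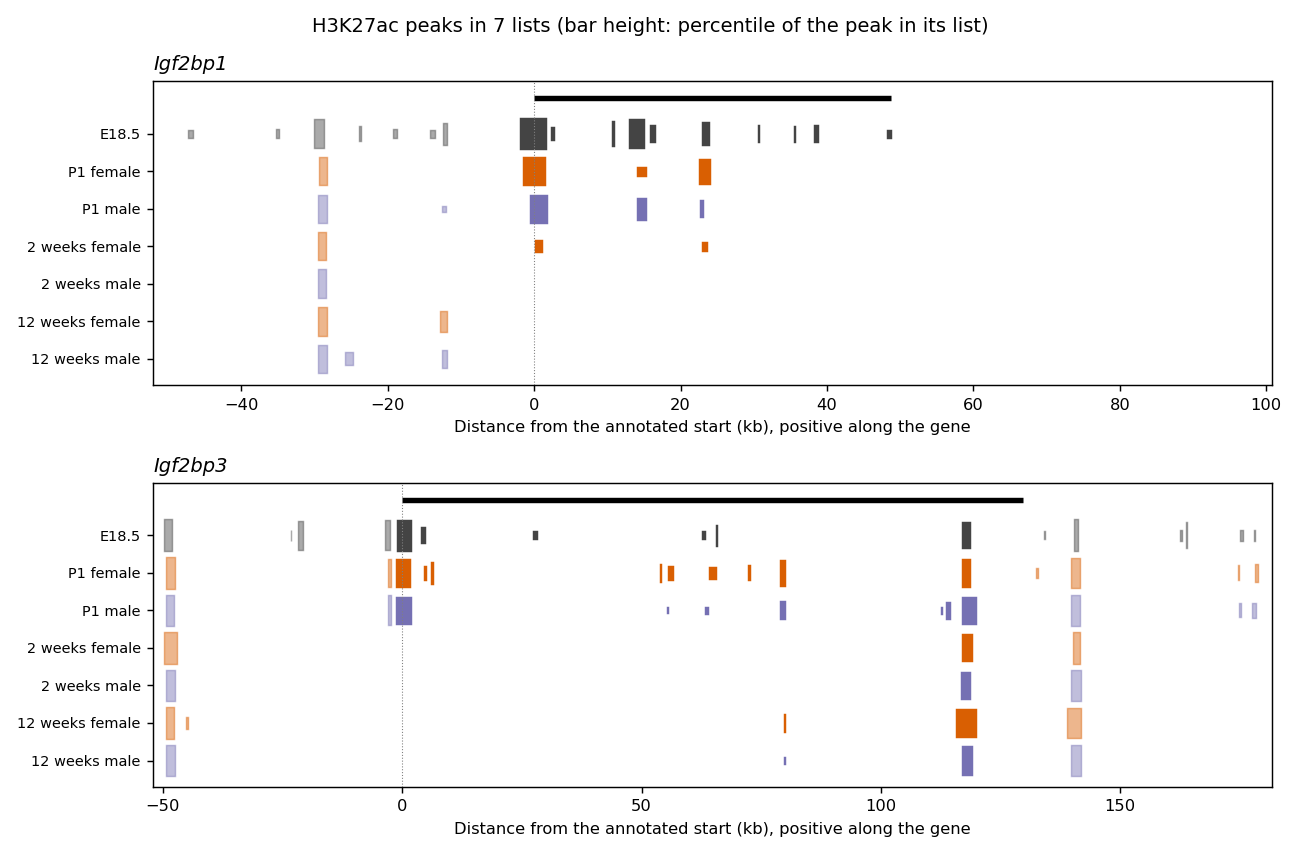
Peaks in the windows of Igf2bp1 (top) and Igf2bp3 (bottom) in the 7 lists, by distance from the annotated start in kb; bar height is the percentile of the peak in its list, faded bars lie outside the gene, the black bar is the gene, and colours mark E18.5 (grey), females (orange) and males (purple). Inside Igf2bp1 no peak remains in 2-week males or at 12 weeks, and in Igf2bp3 a peak 118 kb from the start remains in every list while that at the start is gone from 2 weeks.

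The body of Igf2bp3 kept peaks in every list. Its body peaks numbered 5 at E18.5, 8 (female) and 6 (male) at P1, 1 in each 2-week list and 2 in each 12-week list. The peak that stayed lay in an intron at chr6:49094983-49099239, 118 kb from the start, and ranked at 79.1 before birth. With the female value first, it stood at 83.6 and 81.2 at P1, at 81.7 and 80.7 after 2 weeks, and at 87.6 and 85.9 after 12 weeks. Both 12-week values were above the 5 earlier ones. In P1 males and 12-week females this peak came within 1 kb of an annotated start outside the basic set, so that with all starts Igf2bp3 was still called in 12-week females. A weaker intron region at chr6:49134949-49135934, 79.5 kb from the start, was called at P1 (75.4 in females, 46.2 in males) and again at 12 weeks (48.8 and 5.24), and in neither 2-week list. Downstream of Igf2bp3, a pair of regions lost between P1 and 2 weeks lay near the neighbouring gene Gpnmb: chr6:49036202-49037461, at its start, ranked at 19.6 before birth and at 44.9 and 33.6 in the female and male P1 lists, and chr6:49039231-49040250 at 20.2, 34.8 and 32.5. The promoters of the neighbours Malsu1 and Tra2a were called in all 7 lists at 93.4 or above.

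Igf2bp2, or IMP2, is the member of the family known to persist in adult tissues. The gene lies on the minus strand at chr16:22059009-22163299 (GRCm38, 104 kb, ENSMUSG00000033581.17), and its promoter region spans chr16:22160551-22164167. The promoter peak ranked at 98.1 before birth, and at P1 at 92.8 in females and 91.9 in males. At 2 weeks it ranked at 83.5 in females and 79.2 in males, and at 12 weeks at 72.3 in females and 64.7 in males. Both libraries of each age were below both of the age before. Among the promoters called in all 7 lists, 1.36% (162 of 11933) showed this order, with Igf2bp2 the only member among them. The median of those 11933 promoters was 94.9 at E18.5 and 87.3 to 91.6 afterwards, with no such descent.

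Against promoters alone, Igf2bp2 ranked at 89.8 before birth, at 82.7 (female) and 82.3 (male) at P1, at 62.0 and 57.2 after 2 weeks, and at 46.5 and 48.4 after 12 weeks, again without overlap between ages. In these ranks uncalled promoters count below every called one, so the lowest place open to a called promoter differs between lists. In the percentile among all peaks, 399 of the 11933 promoters called in all 7 lists fell at least as far as that of Igf2bp2, itself included. That fall is from E18.5 to the mean of the 12-week lists, and promoters lost by 12 weeks are not in the count. The width of its peak showed no such order, ranging from 2552 bp in 2-week males to 3545 bp in P1 males. In its body an intron region 44.0 kb from the start, chr16:22117573-22121095, was called in all 7 lists, within 1 kb of a start outside the basic set in 4 of them, at 38.9 before birth, 9.18 (female) and 41.9 (male) at P1, 57.7 and 34.6 after 2 weeks, and 73.1 and 55.9 after 12 weeks. In 12-week females this intron peak ranked above the promoter peak. A second intron region 12.5 kb from the start, chr16:22150286-22151247, was called in P1 males and in all 4 later lists, at 30.8 to 55.2.

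Hmga2 encodes a chromatin protein with AT-hooks that is abundant in embryonic tissue. The gene lies on the minus strand at chr10:120361275-120476469 (GRCm38, 115 kb, ENSMUSG00000056758.14), with no other protein-coding gene in its window. Its promoter region, chr10:120474193-120478498, was called in all 7 lists. The percentile was 94.0 before birth and, at P1, 74.2 in females and 76.1 in males. At 2 weeks it was 73.5 in females and 67.5 in males, and at 12 weeks 80.3 in females and 51.7 in males. Among all peaks the postnatal ages overlapped, since the 12-week lists gave both the highest and the lowest of the 6 postnatal values. Peak width changed little, from 3464 bp in 2-week males to 4270 bp in P1 females. Against promoters alone Hmga2 stood at 68.4 at E18.5, at 52.9 (female) and 55.2 (male) at P1, at 51.2 and 49.1 after 2 weeks, and at 51.1 and 45.4 after 12 weeks. By that ranking both P1 values were above the 4 later ones, and the 2-week and 12-week values overlapped. Uncalled promoters rank there below every called one, and 58.6% to 63.9% of promoters were called in the postnatal lists. The lowest place open to a called promoter thus differs between lists. The order of the postnatal values of Hmga2 is therefore not read as a fall with age.

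The body of Hmga2 held peaks in every list: 5 at E18.5 and then, in females and males, 11 and 7 at P1, 4 and 3 after 2 weeks, and 8 and 4 after 12 weeks. The strongest lay in an intron at chr10:120428195-120431501, 46.6 kb from the start, at 85.6 before birth and then, in females and males, at 76.8 and 72.7 at P1, 79.01 and 66.3 after 2 weeks, and 85.9 and 84.7 after 12 weeks. In 4 of the 7 lists (P1 females, 2-week females and both 12-week lists) it ranked above the promoter peak. A neighbouring intron region, chr10:120420420-120422808, was also in all lists, at 23.3 to 68.1. Other intron regions came and went: chr10:120398867-120400710 was called at P1 alone (65.2 and 49.9), chr10:120417274-120420217 at P1 (76.5 and 64.5), in 2-week females (19.9) and in 12-week females (2.92), and chr10:120377293-120378478 in P1 females (8.78), 2-week males (24.2) and both 12-week lists (63.2 and 45.0).

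**Figure D3:**
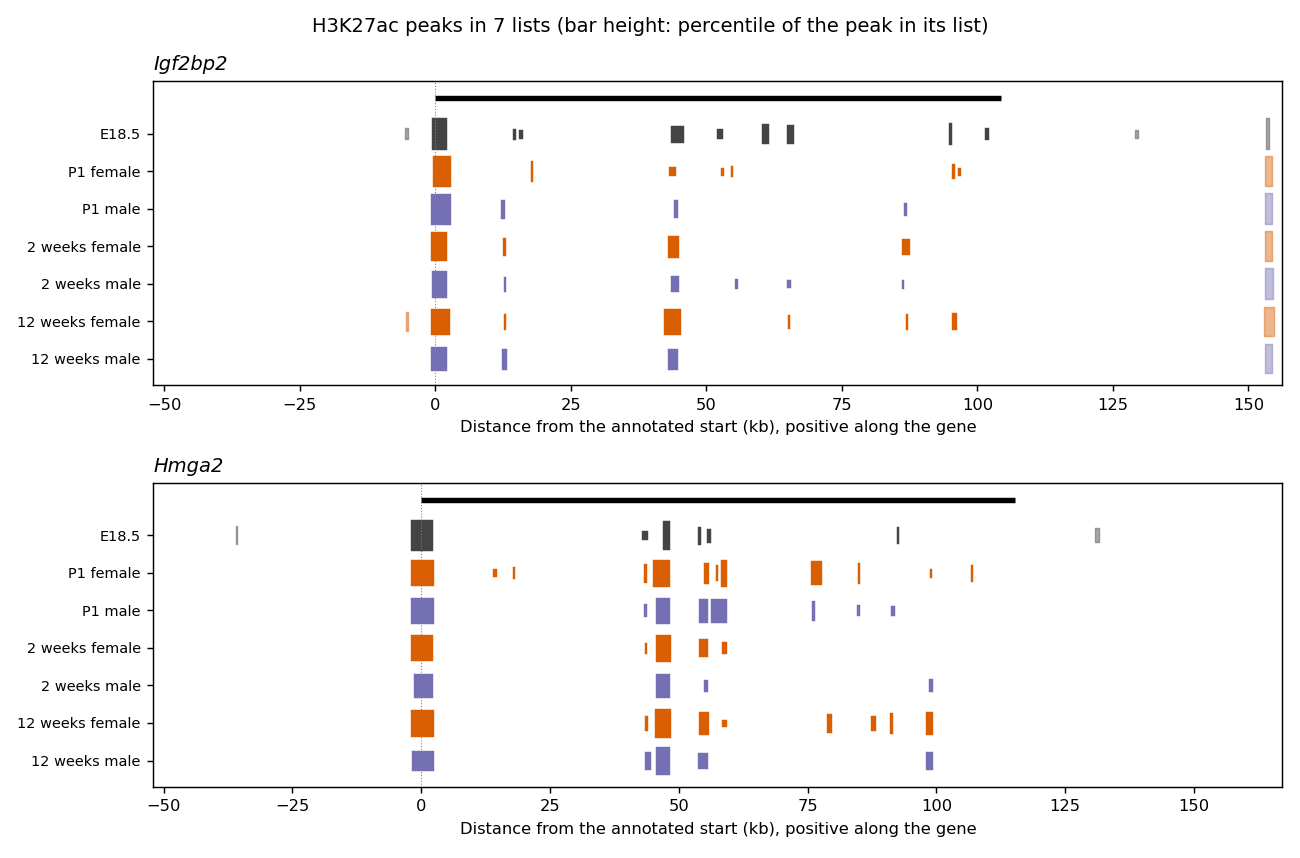
Peaks in the windows of Igf2bp2 (top) and Hmga2 (bottom) in the 7 lists, by distance from the annotated start in kb; bar height is the percentile of the peak in its list, faded bars lie outside the gene, the black bar is the gene, and colours mark E18.5 (grey), females (orange) and males (purple). Both promoters have a peak in every list, and the Hmga2 intron 46.6 kb from the start has one in every list as well.

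The promoters of these genes with kept peaks are shown for comparison with that of Igf2bp3, with GGGCGG or its reverse complement CCGCCC in capitals. RefSeq promoters were matched for 5 of the 6 genes, all but Igf2bp1.
Igf2bp2 promoter (chr16:22163250-22163549, minus strand): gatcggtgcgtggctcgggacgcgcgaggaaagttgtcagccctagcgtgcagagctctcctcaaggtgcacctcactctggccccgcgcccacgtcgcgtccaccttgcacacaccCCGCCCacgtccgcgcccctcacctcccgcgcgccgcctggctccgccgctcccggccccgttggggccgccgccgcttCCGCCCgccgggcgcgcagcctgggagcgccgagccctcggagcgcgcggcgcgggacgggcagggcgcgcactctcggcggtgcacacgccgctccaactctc
Hmga2 promoter (chr10:120476420-120476719, minus strand): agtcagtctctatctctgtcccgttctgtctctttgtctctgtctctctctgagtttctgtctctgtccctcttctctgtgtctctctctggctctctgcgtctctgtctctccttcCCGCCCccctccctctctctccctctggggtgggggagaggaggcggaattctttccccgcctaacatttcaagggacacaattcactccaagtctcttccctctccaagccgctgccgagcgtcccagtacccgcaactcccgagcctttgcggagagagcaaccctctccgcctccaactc

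Igf2bp2 had the richest of these sequences, with 47 CpG at 76.7% GC and 2 GGGCGG, a letter string found in 48.0% of promoters, at 2 or more places in 27.5%. Hmga2 had 12 CpG at 57.7% GC and 1 GGGCGG. The promoter of Lin28a held 10 CpG at 63.3% GC and 1 GGGCGG, and that of Lin28b 8 CpG at 39.0% GC. Across the table, promoters called in at least 1 list had a median of 19 CpG (12335 promoters) and those called in none a median of 2 (4187 promoters). Both Lin28 promoters and that of Hmga2, called in every list, lay between these medians, and Igf2bp3 and Igf2bp2 lay above the higher one.

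Lin28a and Lin28b, whose proteins keep let-7 low in early embryos and progenitor cells, had few peaks inside the genes, all of them at E18.5 but 1. Lin28b (chr10:45376620-45486395, minus strand, GRCm38, 110 kb, ENSMUSG00000063804.8) had 1 peak inside the gene at E18.5 and 1 in P1 males. The E18.5 peak, chr10:45485747-45486897, ranked at 88.4 (fold 3.79, −log10 q 3.63). It covers the outermost annotated start, which is not in the basic set and lies 16.2 kb upstream of the basic one. The P1 male peak was 220 bp wide in an intron, at percentile 1.65. In the other 5 lists the whole window of 210 kb held 0 peaks, as was true of 15.6% to 19.4% of all gene windows in those lists.

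Lin28a (chr4:134003330-134018841, minus strand, GRCm38, 15.5 kb, ENSMUSG00000050966.9) had 3 peaks inside the gene at E18.5, at 28.6, 55.4 and 81.2, and 0 in the other 6 lists. They covered 8.17% of the gene, against 5.82% over all protein-coding genes in that list. Its window held 19 peaks at E18.5, of which 13 lay outside genes' promoters and outside Lin28a, at percentiles of 8.78 to 67.6, and 3 at promoters of other genes. In the 6 other lists the window held 2 to 4. The highest, chr4:134013259-134013441, was 183 bp wide, in an intron, within 1 kb of the start of a shorter annotated transcript. With the starts of all annotated transcripts, 6 of the 6 genes therefore had a promoter peak at E18.5, with the counts at P1, 2 weeks and 12 weeks in both sexes unchanged at 4, 2 and 2, beside 58.2%, 59.8% and 60.7% of all promoters. On that reading both Lin28 promoters were called at E18.5 alone. The E18.5 list held many weak peaks, and no other list repeats these. Beside Lin28a, the promoters of its neighbours Dhdds and Hmgn2 were called in all 7 lists, at 87.3 to 97.7.

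**Figure D4:**
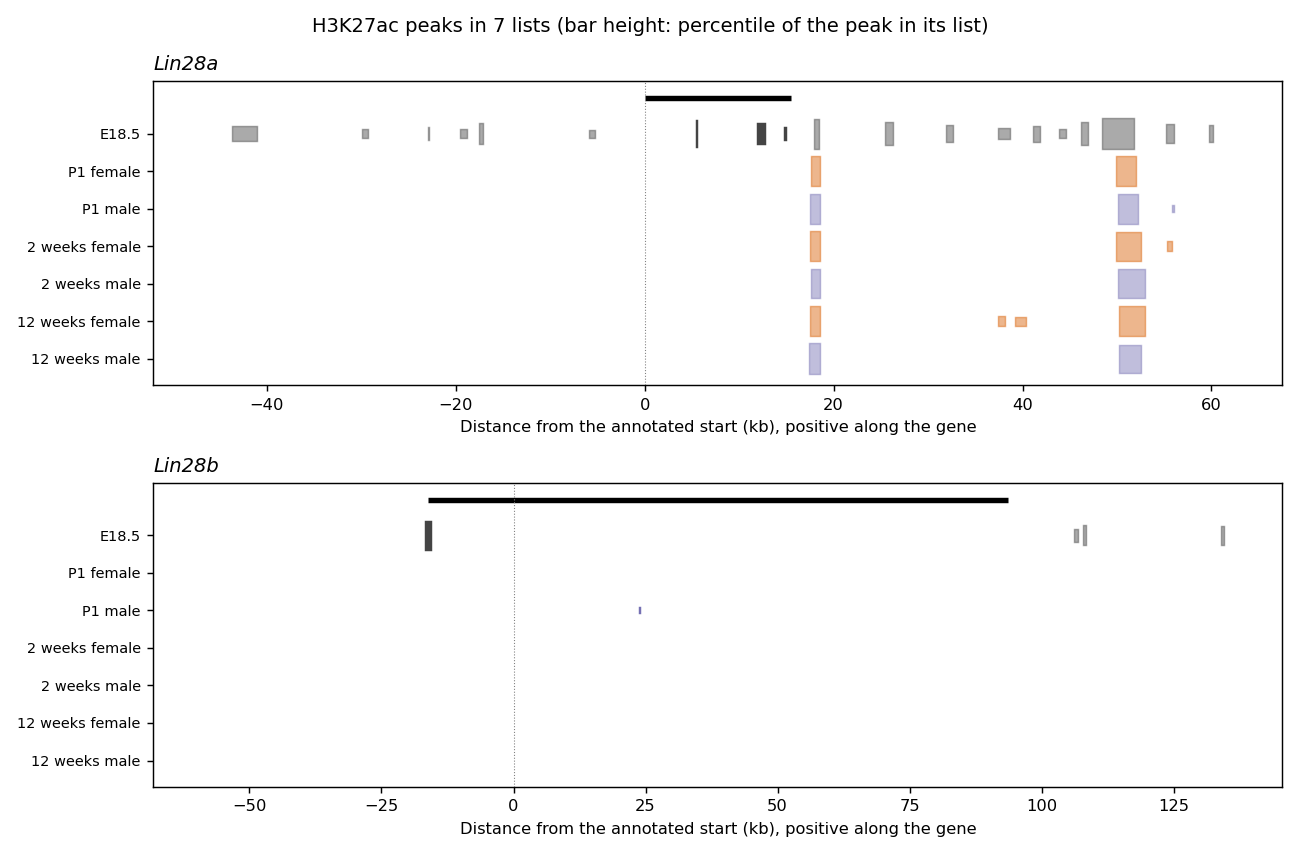
Peaks in the windows of Lin28a (top) and Lin28b (bottom) in the 7 lists, by distance from the annotated start of the basic set in kb; bar height is the percentile of the peak in its list, faded bars lie outside the gene, the black bar is the gene, and colours mark E18.5 (grey), females (orange) and males (purple). Lin28b has no bar in 5 lists, and its E18.5 bar sits 16.1 kb upstream of the basic start, at the outermost annotated one.

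Over all 6 windows, 7 of the 105 regions were lost by the rule above, 3 at Igf2bp1 and 4 at Igf2bp3, against 0.518% of all 150510 regions; these genes were selected on such regions, and nothing is read from the difference. Of the 7, 5 were gone from both 2-week lists and the other 2, the Igf2bp1 promoter and an Igf2bp1 intron, were still called in 2-week females. Of the 105, 0 were gained (called in both 12-week lists and in neither E18.5 nor P1), where 5.51% of all regions were. In all 7 lists, 12 were called (13.2% of all regions), and 6 of these were promoters of neighbouring genes. At E18.5 alone, 47 were called, beside 43.5% of all regions, with a median percentile of 36.9 against 38.9 for all such regions. The E18.5 surplus at these genes was thus like that of the list as a whole. Requiring a −log10 q of at least 2 left 38 regions in the windows, of which 3 were lost and 4 gained (0.205% and 10.8% of all regions). At a −log10 q of at least 5, 3 of 15 were lost and 1 gained (0.0804% and 9.92%). With 50% of a region covered, 3 of 105 were lost and 1 gained (0.212% and 9.25%). Leaving out the E18.5 list gave 10 of 58 lost and 0 gained (2.15% and 13.1%).

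Peaks covered 29.6 kb of the 523 kb of the 6 genes at E18.5. In females and males they covered 29.0 kb and 26.5 kb at P1, 16.4 kb and 11.9 kb after 2 weeks, and 22.1 kb and 15.3 kb after 12 weeks. The share covered was 5.65% before birth, 5.54% (female) and 5.07% (male) at P1, 3.13% and 2.28% after 2 weeks, and 4.21% and 2.92% after 12 weeks. Over all protein-coding genes it was 5.82%, 3.93% and 3.72%, 5.12% and 4.64%, and 8.72% and 6.76%. The 6 genes were slightly below all genes at E18.5, above them in both P1 lists and below them in the 4 later lists. Against the median gene (5.28% at E18.5 and 2.92% in 2-week females) the order was the opposite in those lists, the 6 genes being higher. Hmga2 alone held 10.6 of the 22.1 kb in 12-week females and 8.69 of the 15.3 kb in 12-week males.

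**Figure D5:**
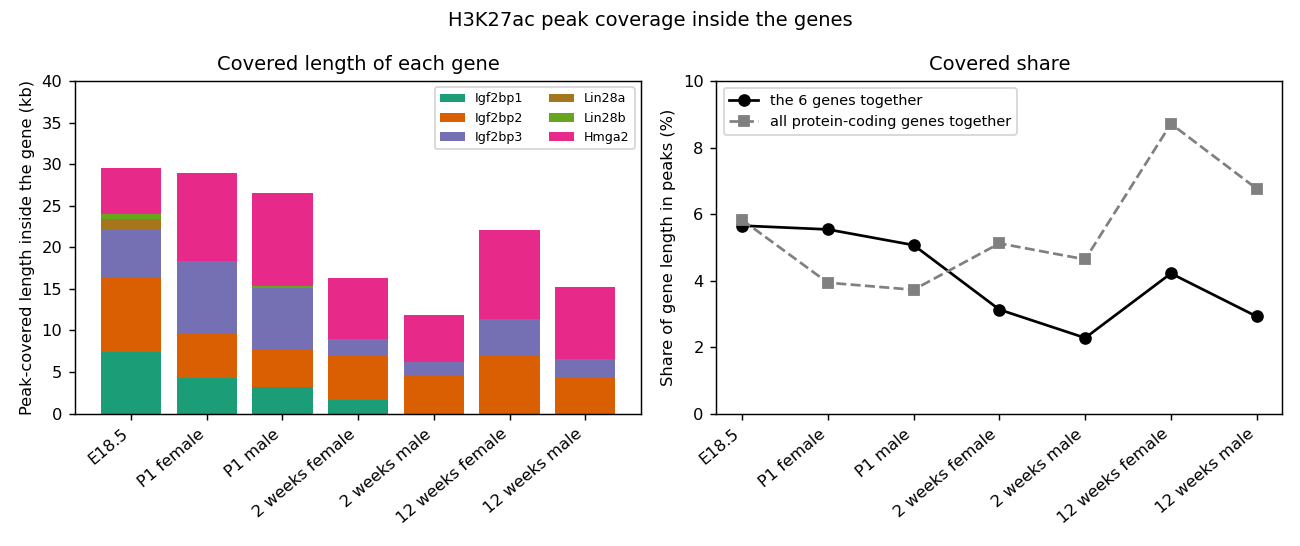
Length of each gene covered by peaks in kb, stacked by gene (left), and the covered share of gene length in percent for the 6 genes together and for all protein-coding genes together (right), in each of the 7 lists. The share of the 6 genes is 5.07% or more up to P1 and 4.21% or less from 2 weeks, while that of all genes rises to 8.72% in 12-week females.

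The protein-coding genes with the most similar promoter pattern were found by the mean absolute difference of the percentile over the 7 lists, with 0 for a list without a peak. For Igf2bp3 these included Gria4, a glutamate receptor subunit (4.84 points), and Vcan, the matrix proteoglycan versican (5.63), which were also called only at E18.5 and P1. For Igf2bp1 they were Fbn2, a fibrillin (6.49), Mxd3, a MAX-binding transcription factor (8.23), and Gria4 (8.75). For Igf2bp2 they were Duxbl1 (2.83), Zfp618 (3.32) and Duxbl3 (3.51); the Duxbl genes are near-identical copies, whose read placement is uncertain. For Hmga2 they were Sncaip (1.79), Acot1 (1.94) and Hoxa2 (2.13).

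Promoters of other genes of the axis were read beside the 54.4% of all protein-coding promoters that were called in all 7 lists. Of 12 genes of microRNA processing and let-7 turnover, 11 were called in all 7 lists, among them Dicer1, which cuts the let-7 precursor, at 91.5 to 98.0, and Tut4, which tails it for decay, at 86.9 to 99.4. The exception was Trim71, a let-7 target of early embryos, at 71.0 at E18.5 and 35.4 in P1 females and not called elsewhere. Of 16 other let-7 targets and growth genes, 14 were called in all lists, including Hmga1, the paralogue of Hmga2, at 56.5 to 94.7 and Myc at 91.6 to 99.0. Dlk1, an imprinted growth gene, was lost (88.2 at E18.5, 57.0 and 52.5 in the P1 female and male lists, 36.0 and 38.0 in those of 2 weeks, not called at 12 weeks). Plagl1, another imprinted growth gene, stood at 91.9 at E18.5 and at 22.3 in 12-week females, and was missing from the 12-week male list alone.

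Of 14 genes of the insulin-like growth factor axis, 10 were called in all lists (54.4% of all promoters) and 2 were lost (0.456%), Igf2 and the noncoding H19 beside it. Igf2, whose mRNA gives the IGF2BP family its name, ranked at 88.4 before birth and at 58.1 (female) and 58.7 (male) at P1 and was not called later. H19 ranked at 86.3, 57.4 and 61.9 in the same lists. Their timing was that of Igf2bp3. The binding protein genes Igfbp1 (41.7) and Igfbp2 (85.3) were called at E18.5, and after it Igfbp2 alone, in 12-week females (16.6). The receptors Igf1r and Igf2r were called in every list, at 90.5 to 99.3 and 74.98 to 96.9.

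Of the 12 let-7 hairpins, 4 had a peak within 1 kb in all 7 lists (Mirlet7b, Mirlet7c-2, Mirlet7e and Mirlet7i), 5 in none and 3 in some, although a hairpin can lie far from the start of its transcript. The share over other microRNA hairpins was not computed, so nothing is read from these counts. Mirlet7e, which lies in a cluster with other microRNAs, ranked at 88.0 to 98.0. Mirlet7b and Mirlet7c-2, which lie near each other, shared 1 peak in 6 of the 7 lists, at 78.1 before birth, at 37.3 in P1 females, at 76.6 (female) and 74.9 (male) after 2 weeks and at 96.7 and 95.4 after 12 weeks. In P1 males the peaks beside them were separate, at 9.35 and 65.6. Mirlet7i stood at 99.96 at E18.5 and, lower, at 91.6 (female) and 88.98 (male) after 12 weeks. Peaks beside Mirlet7a-1 and Mirlet7f-1 stood at 92.4 in 12-week females and in no other list above 2.27.

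Called promoters of markers of other cells differed in number over the same ages, where 69.9% of all protein-coding promoters were called at E18.5 and 58.6% to 63.9% in each other list. Of 12 erythroid markers, 7 to 10 were called in the E18.5 and P1 lists and 3 to 5 in the later ones, with medians of the called promoters of 57.7 to 79.5 and 69.2 to 77.2. Gata1, the defining transcription factor of the lineage, was called in no list, and the globin gene Hba-a1 only at E18.5 (54.9) and P1 (61.2 in females, 9.35 in males). Liver markers were called at E18.5 (2 of 8) and in P1 females (3 of 8) and in no other list. At E18.5 these were Apoa1 (82.8) and Hnf4a (54.4), and in P1 females Ttr (28.6), Hnf4a (15.15) and Fga (14.6). The promoters of Alb, Afp, Cyp3a11 and Serpina1a were called in none. Kidney markers were called at E18.5 alone (2 of 8). Of 8 genes of cell division, 8 were called in every list but that of 12-week males, with 5. Of 8 chromaffin-cell markers, 8 were called at E18.5 and in both 2-week lists and 4 to 7 in the others, fewest in 12-week males. Their median percentile was 72.3 before birth, 57.2 (female) and 38.5 (male) at P1, 36.5 and 47.1 after 2 weeks, and 45.98 and 27.2 after 12 weeks. The part of these and of the cortex markers in the loss at Igf2bp1 and Igf2bp3 was not tested.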

How the data were processed

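H3K27ac ChIP and sequencing was done on 7 pools of adrenal glands, 1 library per age and sex, and an input library of 12-week females was not used here. Labels gave the groups. For each library the authors deposited a file of broad peaks, with a score (10 times the −log10 q, whole part), a fold enrichment, a −log10 p and a −log10 q for each peak. Per the submitters' processing notes the tools included CASAVA 1.8.2, Bowtie2 2.3.4.3, MACS2 2.1.1 and deepTools 3.2.2.0 with build mm10; the control, cutoff and read filters are not given in the sources used here. The lists hold no read counts, so depth is unknown and no interval could be given.

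The members and lists were chosen with earlier results of these data known. Scaffold peaks were left out, and 0 of the peaks on the 21 chromosomes ended past a GRCm38 chromosome end. Peaks overlapping a gene or within 50 kb (GENCODE M21) were taken. A promoter was called when a peak lay within 1 kb of a start of the basic set. Percentiles were computed from the deposited −log10 q within each list. Regions are overlapping peaks merged across lists, called with at least 1 base. No test was made, as the members were chosen from these lists and each group has 1 library. Shares over all promoters or regions were computed under the same setting as the count beside them. The pattern calls were first tested on simulated data.

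By the rule for named genes, the 6 members were named with the 3 protein-coding genes of most similar promoter percentiles for each called member, and pathway genes lost or gained between P1 and 12 weeks. The lists covered let-7 genes, microRNA processing, the insulin-like growth factor axis, let-7 targets and markers of cortex, chromaffin, erythroid, liver, kidney and dividing cells. Other pathway and marker genes were named after their values were seen. Some items that the rule would name are not reported here. Alternatives were a −log10 q of at least 2 or 5, the same number of peaks (44244), the same covered length (56.0 Mb), 50% of a region covered, gaps of up to 1 kb merged, windows of 20 kb, promoter windows of 0.5 kb, starts of all transcripts, the E18.5 list left out and ranking by fold; others were chosen after seeing the data (5 kb promoter windows, ranks among promoters, other genes' starts left out, promoter loss under each setting, and the body peaks of Igf2bp1 at a −log10 q of at least 2). Python 3.11.15, numpy 2.4.6, pandas 2.3.3 and matplotlib 3.10.9 were used.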

Additional observations from a re-analysis of the deposited data

Results flagged for a closer look

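The promoter percentile of Hmga2 moved in opposite directions in the sexes between P1 and 12 weeks. It went from 74.2 to 80.3 in females, a change of 6.11 points, and from 76.1 to 51.7 in males, a change of −24.4, so that the female change exceeded the male change by 30.5 points. Ranked among promoters alone, both fell (−1.74 in females and −9.75 in males). That rank places uncalled promoters below every called one, and the share called differed between lists. It was 58.6% in P1 females and 63.9% in 12-week females, and 59.5% and 59.9% in males. A change in this rank holds the change in that share too, so the female fall does not undo the rise among all peaks. The difference was not tested, since each age and sex has 1 library. For Igf2bp2 the percentile fell by 20.5 points in females and fell by 27.2 points in males.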

How the results depend on the processing

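Of 53 alternatives to 7 counts, 42 stayed within 1.5 times and 11 moved. Lost promoters went from 2 to 1 with the starts of all transcripts, where Igf2bp3 was called in 12-week females, and to 3, with Igf2bp2, at the same covered length. With a −log10 q of at least 5, promoters called in both 2-week lists went from 2 to 1 and in both 12-week lists from 2 to 0, the latter also 0 with the same covered length, settings that by construction drop the weaker peaks. At a −log10 q minimum of 5 the lost regions numbered 3 (of 15) rather than 7 (of 105), at a minimum of 2 they numbered 3 (of 38), and with 50% of a region covered 3 (of 105). Gained regions went from 0 to 1, 4 and 1 in those settings and to 1 with the same number of peaks; the cause was not tested. Ranking by fold enrichment moved the 21 promoter percentiles by −0.259 to 2.15 points, and ranking among promoters lowered all but that of Igf2bp1 in 2-week females (26.2 to 41.5). A called promoter cannot come near 0 in the latter ranking, since all uncalled promoters rank below it. In 2-week females 60.5% of promoters were called, so 41.5 is a low place there. The lists carry no depth and no replicate, and a missing peak is not a missing mark.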
